A study of Mus musculus with 15 samples.

Results

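Genomic imprinting leaves 1 of the parental copies of a gene silent. Here 10 imprinted genes of growth control were followed across sorted mouse liver endothelial cells: H19, Meg3, Plagl1, Peg3, Cdkn1c, Grb10, Dlk1, Mest, Ndn and Nnat. They were chosen by name as imprinted genes linked to stem-cell quiescence, with earlier results of these data known. A probe was taken as theirs when its annotation in the scanner files mapped to the gene. The chosen genes were 10 of 21180 genes with a probe and held 24 of 55681 probes. H19 had 5 probes, Plagl1 had 4, Meg3 and Mest had 3 each, Dlk1, Peg3 and Nnat had 2 each, and Cdkn1c, Grb10 and Ndn had 1 each. The H19 probes are those annotated with that symbol, and 2 probes with an accession that the RefSeq table did not pair with a gene were left unnamed and may also read H19. The arrays do not tell the parental copies apart, so every value below is the sum of both.

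An imprinted gene is marked by DNA methylation in the egg or sperm, and after fertilisation only the maternal or the paternal copy is read. Many imprinted genes sit in clusters that share 1 control region, as H19 does with Igf2, Dlk1 with Meg3, and Cdkn1c with Kcnq1. Paternally read genes tend to promote growth of the fetus and maternally read ones to restrain it. Most fall silent or drop in level after birth, and several of them are known for keeping adult stem cells out of cycle.

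RNA came from endothelial cells of adult mouse liver, sorted into 5 groups with 3 arrays each. EC-SP and EC-MP cells were taken at 8 weeks of age. The labels do not spell out the letters, which in this field usually stand for side population, cells that pump out a DNA-binding dye, and main population. The other 3 groups were sorted by surface protein into CD157+CD200+, CD157-CD200+ and CD157-CD200- cells, described as from adult liver with no age in weeks. No group carries a named mutation or treatment, and strain, sex and the number of animals per sample are not given in the sources used here. The series calls its samples independent, and nothing says what a replicate number stands for beyond the slide it shares, so p-values measure the spread between these samples.

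All values are log2 signal relative to the 75th percentile of the array, so that 0 is a signal equal to that percentile, and differences between groups are on the same log2 scale. Between 57.3% and 69.4% of spots were well above background on an array. The sort genes followed the labels. Bst1, the gene of CD157, read between 2.46 and 2.85 on the EC-SP and CD157+CD200+ arrays and at or below -1.14 on all others. Cd200 was not well above background on any CD157-CD200- array and read between 3.29 and 4.50 on the other subset arrays. All 10 genes of the endothelial marker list were well above background on all 15 arrays. The EC-SP and EC-MP arrays were read on another scanner and software version than the subset arrays, so levels are compared within each set only.

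Of the 10 genes, 9 were bright enough to be tested in both sets of arrays. Meg3 was not tested. A gene was called where the Benjamini-Hochberg adjusted p of limma, taken over all features of a fit, was under 0.05. Between EC-SP and EC-MP, 4 of 9 were called, where 16.5% of all features were. Of these 4, Peg3 was higher in EC-SP, as 9.15% of features were, and H19, Plagl1 and Mest were lower, as 7.39% were. Peg3 is counted through a probe that passed the filter by EC-SP alone and was well above background on 1 of 3 EC-MP arrays. Its other probe did not pass the filter and was not tested there. Comparing CD157+CD200+ with CD157-CD200- cells, 2 of 9 were called, against 15.2% of all features: Plagl1 higher (8.12% of features) and Cdkn1c lower (7.11%). Comparing CD157-CD200+ with CD157-CD200- cells, 3 of 9 were called, against 11.8% of all features: H19 and Plagl1 higher (6.31%) and Cdkn1c lower (5.52%). In CD157+CD200+ against CD157-CD200+ cells limma called 0 of 9, against 1.05% of all features (0.802% higher and 0.245% lower), while H19, Plagl1 and Mest, 3 of 9, had an unadjusted p under 0.05, as 8.57% of all features did. The 3 subset comparisons share arrays and are not independent of each other. Limma's F test for any difference among the 3 subsets called H19, Plagl1 and Cdkn1c, 3 of 9, against 13.9% of all features.

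Arrays with the same replicate number lay on the same slide and were scanned together. With that number as a block in the fit, limma called the same 4 genes between EC-SP and EC-MP, where 21.9% of features were called. For CD157+CD200+ against CD157-CD200- the block raised the count from 2 to 6, adding Mest, Grb10, Nnat and Peg3, against 29.2% of features. It called 2 between CD157+CD200+ and CD157-CD200+, H19 and Mest, against 3.06%, and 4 between CD157-CD200+ and CD157-CD200-, adding Peg3, against 22.3%. The blocked F test called 6, adding Mest, Grb10 and Peg3, against 26.8%. The median difference of the 9 genes was 0.022 for EC-SP against EC-MP, 0.47 for CD157+CD200+ against CD157-CD200-, -0.045 for CD157+CD200+ against CD157-CD200+ and 0.18 for CD157-CD200+ against CD157-CD200-. Over all features the medians were -0.0028, 0.0070, -0.0071 and 0.020. Of the features called between EC-SP and EC-MP, 55.3% were higher in EC-SP, and 39.8% were with the authors' own scaling of the arrays, where the median of all features was -0.17 in place of -0.0028. H19, Plagl1, Mest and Peg3 kept their directions there.

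**Figure D1:**
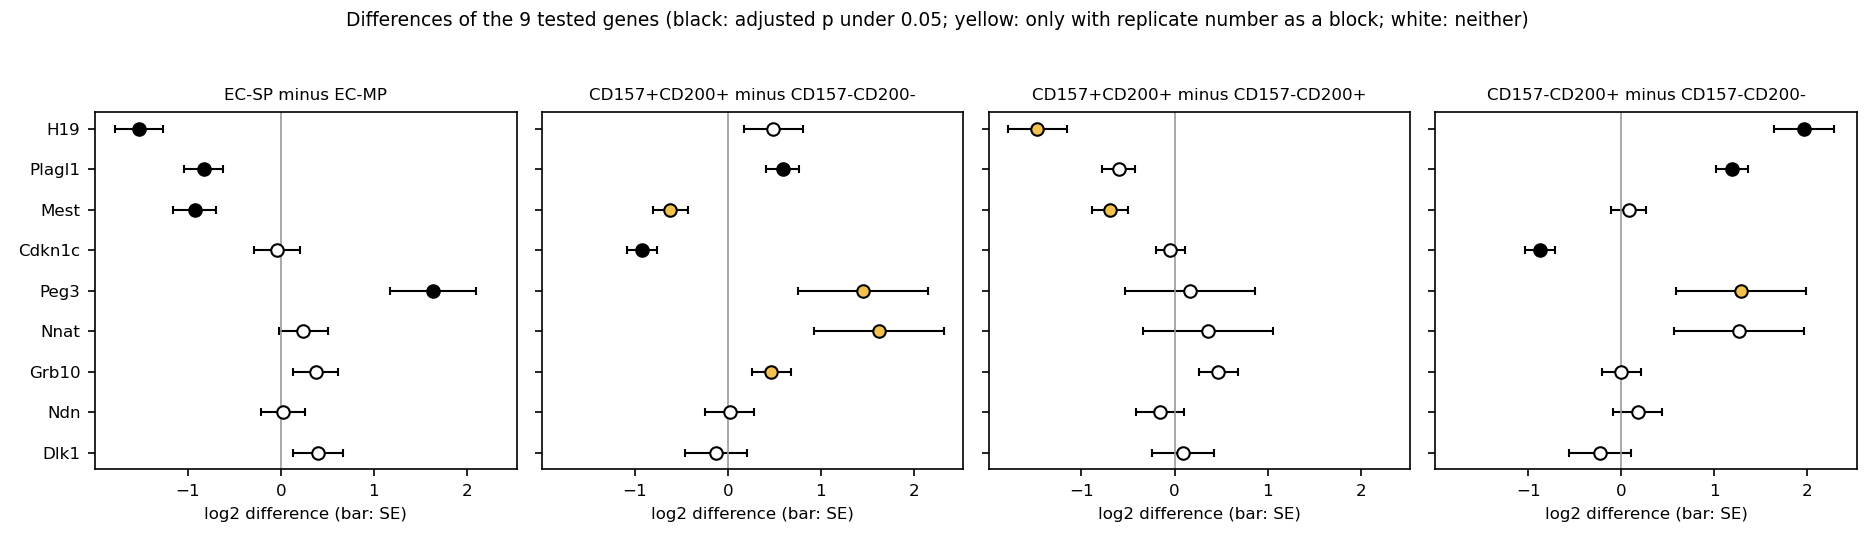
Log2 difference of each of the 9 tested genes in the 4 comparisons, with bars for 1 standard error of the fitted difference; black points were called, yellow points only with the replicate number as a block, white points in neither fit. H19 and Plagl1 lie below 0 for EC-SP minus EC-MP and above 0 for CD157-CD200+ minus CD157-CD200-, and Ndn and Dlk1 have no filled point.

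H19 is a long noncoding RNA, read from the maternal copy next to Igf2, and is known for restraining fetal growth. With probe A_30_P01025068, which stood for the gene in the fits, H19 read -1.41, -1.09 and -1.40 on EC-SP replicates 1 to 3 and 0.56, -0.21 and 0.33 on EC-MP. Every EC-SP array was below every EC-MP array. H19 was 2.88-fold lower in EC-SP (log2 difference -1.53 ± 0.26 SE, adjusted p = 0.00451, limma with Benjamini-Hochberg adjustment), with differences on the 3 slides between -1.96 and -0.88. It stayed called when any 1 of the 6 arrays was left out, with an adjusted p of at most 0.0212.

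Among the subsets H19 was highest in the middle one. The CD157-CD200+ arrays read -0.94, -0.51 and 0.18, the CD157+CD200+ arrays -2.24, -2.03 and -1.42, and the CD157-CD200- arrays -2.70, -2.21 and -2.25. All 3 CD157-CD200+ arrays stood above all others, and the remaining groups overlapped. H19 was 3.90-fold higher in CD157-CD200+ than in CD157-CD200- (1.96 ± 0.32 SE, adjusted p = 0.00273, limma), and this held without any 1 of the 9 arrays. Against CD157+CD200+ cells it read 2.78-fold higher, a CD157+CD200+ minus CD157-CD200+ difference of -1.47 ± 0.32 SE that missed the threshold (limma, adjusted p = 0.0769) and passed it with the replicate number as a block (adjusted p = 0.00985). The difference was of one sign on each slide, between -1.60 and -1.30. With the normexp background correction it was -0.79 with an adjusted p of 0.0419. CD157+CD200+ and CD157-CD200- cells differed by 0.49 ± 0.32 SE (limma, adjusted p = 0.397).

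The 5 H19 probes gave the same picture for both called comparisons. Tested one by one, all 5 were called lower in EC-SP than in EC-MP, with differences from -3.54 to -1.53, and all 5 were called higher in CD157-CD200+ than in CD157-CD200-, from 1.10 to 4.72. The largest of these values, by A_30_P01026972 in EC-SP and by A_30_P01021588 in CD157-CD200-, are set against groups with 2 and 1 of 3 arrays well above background. With the dim arrays at their lowest signal well above background, they are -3.05 and 3.93. Probe A_30_P01026972 was not well above background on any CD157-CD200- array, and by that probe CD157-CD200+ cells were at least 5.97-fold higher. All 5 were lower in CD157+CD200+ than in CD157-CD200+, from -2.23 to -1.37, and 1 of these was called, A_30_P01028827 at -1.37 ± 0.22 SE (limma, adjusted p = 0.0216). For CD157+CD200+ against CD157-CD200- the probes disagreed in sign. They ran from -0.27 to 2.77, and the call on A_30_P01021588, at 2.77 ± 0.67 SE (limma, adjusted p = 0.0207), rests on a CD157-CD200- group in which 1 of 3 arrays was well above background.

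**Figure D2:**
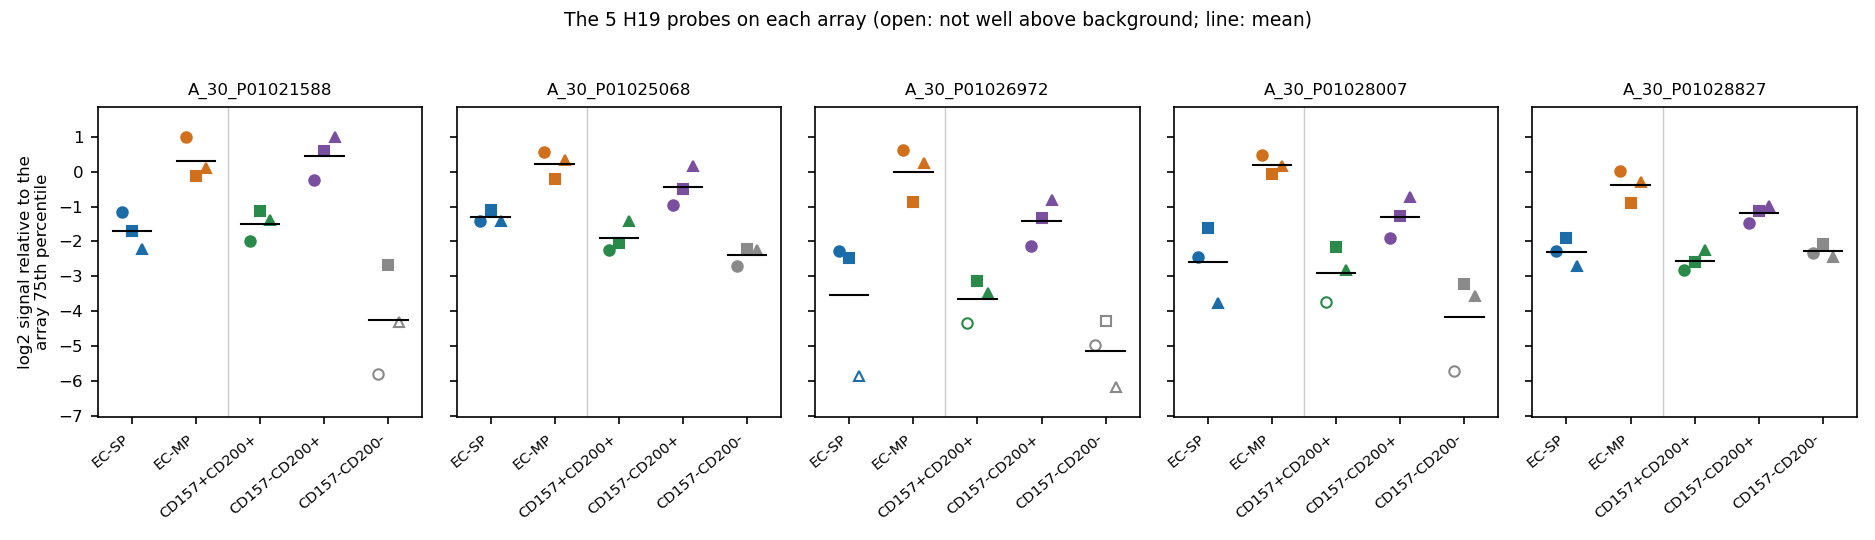
Log2 signal of the 5 H19 probes on each of the 15 arrays by group; circles, squares and triangles are replicates 1 to 3, open symbols were not well above background, and lines are group means. With each probe the EC-MP arrays lie above the EC-SP arrays, and the CD157-CD200+ mean is the highest of the 3 subsets.

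H19 RNA is also the source of a microRNA, miR-675, which the arrays do not measure. Its mature strands are shown because a change in H19 is a change in their host transcript. The RefSeq sequences lie on the minus strand of GRCm38.p6 at chr7:142577112-142577133 for the 5p strand and chr7:142577078-142577099 for the 3p strand, with the seed, bases 2 to 8, in capitals.
mmu-miR-675-5p: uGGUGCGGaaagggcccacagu
mmu-miR-675-3p: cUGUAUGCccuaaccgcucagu

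Plagl1, a paternally read zinc-finger transcription factor also called Zac1, stops cell cycling when overexpressed and is known as a regulator of other imprinted genes, H19 and Igf2 among them. Its probe A_55_P1961968 read 5.10, 5.30 and 5.13 on the EC-SP arrays and 5.92, 6.16 and 5.93 on the EC-MP arrays. The groups did not overlap. Plagl1 was 1.78-fold lower in EC-SP (-0.83 ± 0.21 SE, limma, adjusted p = 0.0270), and the 3 slides agreed closely, between -0.87 and -0.80. Leaving out any 1 of the 6 arrays kept the direction and ended the call, with adjusted p between 0.0545 and 0.0970, and so did testing without the filter on dim probes, with 0.0818.

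Plagl1, like H19, was highest in the middle subset. It read 6.06, 6.21 and 6.11 in CD157-CD200+, 5.58, 5.44 and 5.57 in CD157+CD200+, and 4.67, 5.13 and 5.01 in CD157-CD200-. No 2 of the 3 groups overlapped. The gene was 2.28-fold higher in CD157-CD200+ than in CD157-CD200- (1.19 ± 0.17 SE, limma, adjusted p = 0.00146), called without any 1 of the 9 arrays. It was 1.50-fold higher in CD157+CD200+ than in CD157-CD200- (0.59 ± 0.17 SE, limma, adjusted p = 0.0499; 0.0181 with the replicate block). That call at the threshold held in 1 of the 9 fits that leave out an array, the one without CD157-CD200- replicate 2, and the other 8 gave adjusted p between 0.0769 and 0.167. It was also lost with quantile normalization, the authors' scaling and no filter on dim probes, with limma adjusted p of 0.168, 0.0718 and 0.109. The same held with each probe as a feature and with the mean of its probes, with limma adjusted p of 0.0561 and 0.0720. CD157+CD200+ minus CD157-CD200+ gave -0.60 ± 0.17 SE (limma, adjusted p = 0.235; 0.0744 with the replicate block).

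Of the 4 Plagl1 probes, 3 had like values. Probes A_52_P532456 and A_55_P2153251 gave -0.81 and -0.80 for EC-SP minus EC-MP and 1.16 and 0.92 for CD157-CD200+ minus CD157-CD200-. Probe A_55_P1961965 gave 0.32 and -0.062 (limma, adjusted p = 0.484 and 0.937). When all tested Plagl1 probes were averaged, the EC-SP difference was -0.53 and no longer called (limma, adjusted p = 0.134). Which transcript each probe reads is not analysed here.

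H19 and Plagl1 were lower in EC-SP than in EC-MP, while CD157+CD200+ cells, which share with EC-SP a high Bst1 and Cd200 signal, read above CD157-CD200- cells by 0.49 in H19, not called, and by 0.59 in Plagl1. The difference between the 2 sorts was tested in 1 limma fit of all 15 arrays, as EC-SP minus EC-MP against CD157+CD200+ minus CD157-CD200-. Limma called 2 of 9 genes, both negative, against 5.04% of all features, 2.96% negative and 2.07% positive. H19 gave -2.02 ± 0.43 SE (limma, adjusted p = 0.0143), and each of its 5 probes was called on its own. Of these, A_30_P01026972, A_30_P01021588 and A_30_P01028007 had 0, 1 and 2 of 3 CD157-CD200- arrays well above background. Probe A_30_P01028827 gave -1.91 for EC-SP minus EC-MP and -0.27 for CD157+CD200+ minus CD157-CD200-, both on the negative side. Plagl1 gave -1.42 ± 0.24 SE (limma, adjusted p = 0.00324), and 3 of its 4 probes were called. Both stayed called without any 1 of the 15 arrays. Cdkn1c gave 0.88 ± 0.27 SE (limma, adjusted p = 0.0924; 0.0426 with the replicate block, where 12.7% of features were called). Of all features called here, 41.2% were on the positive side, and this share was 29.0% with the authors' scaling and 54.9% with normexp.

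Within each set of arrays the groups also differed in vessel markers, and those values stand beside the test. The summed signal of 10 large vessel genes, each relative to the 75th percentile, was 315 to 416 in EC-SP and 138 to 235 in EC-MP, and 603 to 665, 561 to 628 and 36.0 to 51.3 in CD157+CD200+, CD157-CD200+ and CD157-CD200- cells. The summed signal of 10 sinusoidal genes was 17.9 to 20.6 and 298 to 525, and 59.8 to 70.9, 118 to 133 and 860 to 1127, in the same order. In the test of the 2 sorts, 7 of 10 large vessel genes were called, all 7 on the negative side as H19 and Plagl1 were. Of the 10 sinusoidal genes 3 were called, 2 on the positive side and 1 on the negative. Of all features 5.04% were called, and 2.96% on the negative side. In these sorted bulk samples fewer cells of a type and less RNA per cell cannot be told apart, and the part of either marker list in the H19 and Plagl1 values was not tested.

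Mesothelial and stromal cells are known sites of imprinted gene expression, so their markers were set beside H19 and Plagl1. The mesothelial list summed to 8.60 to 10.5 in EC-SP, 12.8 to 16.1 in EC-MP, 18.3 to 25.9 in CD157+CD200+, 23.4 to 31.3 in CD157-CD200+ and 1.57 to 1.97 in CD157-CD200- cells. Of its 7 genes with a probe, 2 were tested, Krt19 and Gpm6a. Between EC-SP and EC-MP both were called, Gpm6a lower in EC-SP and Krt19 higher, against 16.5% of all features. In the test of the 2 sorts 1 was called on each side, against 5.04% of all features. Gpm6a had means of 2.51 in EC-SP and 3.80 in EC-MP, and of 4.34 in CD157+CD200+, 4.68 in CD157-CD200+ and -1.14 in CD157-CD200- cells. Msln, Wt1, Upk1b and Lrrn4 were not well above background on any array. The stellate cell and fibroblast list summed to 2.15 to 3.48 in EC-SP and 2.14 to 3.37 in EC-MP, and to 4.74 to 7.06, 3.34 to 5.09 and 3.00 to 3.78 in the subsets, with Pdgfra and Hand2 not well above background on any array. The smooth muscle and pericyte list summed to 11.2 to 16.2 in EC-SP and 5.88 to 6.64 in EC-MP, and to 20.8 to 27.9 in CD157+CD200+, 22.4 to 37.8 in CD157-CD200+ and 6.07 to 9.12 in CD157-CD200- cells. Of its 7 tested genes, 3 were called higher in CD157-CD200+ than in CD157-CD200-, as H19 and Plagl1 were, against 6.31% of all features. In EC-SP against EC-MP 2 were called higher, where H19 and Plagl1 were lower, against 9.15% of all features. The part of these lists in the H19 and Plagl1 values was not tested.

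Mest, a paternally read gene for a membrane protein of the hydrolase fold, read lower in EC-SP than in EC-MP and lower in CD157+CD200+ than in the other subsets. Probe A_55_P2090025 read 1.47, 1.42 and 1.26 in EC-SP and 2.61, 2.02 and 2.30 in EC-MP, with no overlap. Mest was 1.90-fold lower in EC-SP (-0.93 ± 0.23 SE, limma, adjusted p = 0.0266). The call held without EC-MP replicate 2 and was lost when any of the other 5 arrays was left out, with adjusted p between 0.0618 and 0.105, and also without the filter on dim probes, with 0.0826. All 3 probes were lower in EC-SP, from -0.96 to -0.73, and 2 of them were called.

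In the subsets Mest read 2.03, 1.76 and 1.63 in CD157+CD200+, 2.57, 2.60 and 2.33 in CD157-CD200+, and 2.52, 2.57 and 2.18 in CD157-CD200-. Every CD157+CD200+ array was below every other subset array. Against CD157-CD200- the difference was -0.62 ± 0.19 SE (limma, adjusted p = 0.0582; 0.00660 with the replicate block). Against CD157-CD200+ it was -0.69 ± 0.19 SE (limma, adjusted p = 0.189; 0.0256 with the replicate block). The CD157-negative groups overlapped, at 0.078 ± 0.19 SE (limma, adjusted p = 0.912). All 3 Mest probes were lower in CD157+CD200+ cells in both comparisons, with differences from -0.78 to -0.59.

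Cdkn1c is the maternally read inhibitor p57 of cyclin-dependent kinases and holds stem cells in quiescence in several tissues. Its only probe read 0.33, 0.47 and 0.13 in CD157-CD200- cells, -0.59, -0.69 and -0.56 in CD157+CD200+ cells, and -0.58, -0.58 and -0.54 in CD157-CD200+ cells. All 3 CD157-CD200- arrays were above all others, and the CD200-positive groups overlapped. Cdkn1c was 1.90-fold lower in CD157+CD200+ than in CD157-CD200- cells (-0.92 ± 0.16 SE, limma, adjusted p = 0.00324). It was 1.84-fold lower in CD157-CD200+ than in CD157-CD200- cells (-0.88 ± 0.16 SE, limma, adjusted p = 0.00530). Both calls held without any 1 of the 9 arrays, with adjusted p of at most 0.0281. EC-SP and EC-MP overlapped in Cdkn1c, at -0.48, -0.80 and -0.053 against -0.49, -0.30 and -0.41 (difference -0.046 ± 0.25 SE, limma, adjusted p = 0.937).

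Markers of hepatocytes, Kupffer cells and erythroid cells were higher in CD157-CD200- as well, and so was the sinusoidal list given above. The endothelial list summed to 299 to 377 there, against 259 to 295 in CD157+CD200+ and 249 to 276 in CD157-CD200+ cells. The neural and Schwann cell list overlapped, at 13.5 to 17.5 there against 10.1 to 14.4 and 12.1 to 15.4. Not every list was higher in CD157-CD200-. The cholangiocyte list summed to 7.52 to 11.4 there, against 14.4 to 16.1 in CD157+CD200+ and 9.50 to 13.7 in CD157-CD200+ cells. The mesothelial, stellate and smooth muscle sums given above were not higher there either. The 10 hepatocyte genes summed to 38.9 to 43.4 in CD157-CD200-, against 11.5 to 15.2 in CD157+CD200+ and 10.7 to 12.2 in CD157-CD200+ cells. All 9 tested were called lower in CD157-CD200+ than in CD157-CD200-, as 5.52% of all features were. The Kupffer cell list summed to 39.4 to 53.9, against 27.9 to 31.2 and 27.1 to 37.2, and the erythroid list to 10.7 to 20.4, against 1.23 to 1.69 and 1.25 to 1.58. The part of these markers in the Cdkn1c difference was not tested.

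Peg3, a paternally read zinc-finger protein linked to cell survival and to progenitor cells, was near background in several groups. In the EC-SP and EC-MP fit it was represented by A_55_P2163319, which read -2.63, -2.11 and -3.20 in EC-SP and -5.36, -3.77 and -3.72 in EC-MP, where 1 of 3 arrays was well above background. The groups did not overlap, and the fitted difference was 1.63 ± 0.46 SE (limma, adjusted p = 0.0421). The probe passed the filter through EC-SP alone. With the dim EC-MP arrays at their lowest signal well above background, or at their own value where higher, EC-SP was at least 2.21-fold higher. The other probe, A_52_P235861, had 1 EC-SP array at background and was not tested there. Without the filter on dim probes it stood for the gene and gave 0.29 (limma, adjusted p = 0.892). The call was also lost without EC-SP replicate 1, EC-SP replicate 2, EC-MP replicate 1 or EC-MP replicate 2, with adjusted p between 0.0566 and 0.145, and with the authors' scaling, with 0.0707. Without EC-SP replicate 3, A_52_P235861 passed the filter and the difference was 1.06.

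The subset fit used A_52_P235861 for Peg3. It read -1.78, -1.46 and -3.20 in CD157+CD200+, -1.93, -1.75 and -3.28 in CD157-CD200+, and -3.33, -2.43 and -5.05 in CD157-CD200-. The groups overlapped, and replicate 3 was the lowest array in each. On each slide both CD200-positive groups read above CD157-CD200-, by 0.97 to 1.85 for CD157+CD200+ and by 0.68 to 1.78 for CD157-CD200+. The differences were 1.46 ± 0.70 SE and 1.29 ± 0.70 SE (limma, adjusted p = 0.225 and 0.347), and with the replicate block their adjusted p were 0.00296 and 0.00599. CD157-CD200- replicate 3 was not well above background, and without it they were 0.73 and 0.56. Without CD157-CD200- replicate 2 they were 2.04 and 1.87. The other probe gave 2.22 ± 0.49 SE for CD157+CD200+ minus CD157-CD200- (limma, adjusted p = 0.0128), with 1 of 3 CD157-CD200- arrays well above background, and by that probe CD157+CD200+ cells were at least 3.51-fold higher. Cholangiocyte markers moved with Peg3 between EC-SP and EC-MP, with summed levels of 16.9 to 23.4 and 6.12 to 7.29. Of 9 tested, 8 were called higher in EC-SP, as 9.15% of all features were. Against CD157-CD200- cells 0 of 9 were called in either CD200-positive group, with median differences of 0.66 for CD157+CD200+ and -0.18 for CD157-CD200+. Large vessel genes went with Peg3 in both sets of arrays. Of these, 6 of 10 passed as higher in EC-SP, against 9.15% of all features. Over CD157-CD200- cells 9 of 10 did so in each CD200-positive group, against 8.12% for CD157+CD200+ and 6.31% for CD157-CD200+. Of 7 smooth muscle and pericyte genes, 2, 2 and 3 passed as higher in the same order. Sinusoidal genes went the other way, with 10 of 10 lower each time. The part of any of these lists in the Peg3 differences was not tested.

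Grb10 is an adaptor that binds the insulin receptor and dampens its signal. It read 0.84, 0.25 and 0.69 in EC-SP and 0.42, -0.015 and 0.26 in EC-MP, which overlapped (0.37 ± 0.25 SE, limma, adjusted p = 0.358). In the subsets it read 0.25, 0.16 and -0.16 in CD157+CD200+, -0.17, -0.38 and -0.60 in CD157-CD200+, and -0.082, -0.61 and -0.45 in CD157-CD200-. The CD157+CD200+ arrays overlapped CD157-CD200- and were above the CD157-CD200+ arrays. That last difference was 0.47 ± 0.21 SE and was not called (limma, adjusted p = 0.593; 0.117 with the replicate block). CD157+CD200+ minus CD157-CD200- was 0.47 ± 0.21 SE (limma, adjusted p = 0.192; 0.0330 with the replicate block).

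Nnat encodes neuronatin, a small membrane protein of the endoplasmic reticulum. It read -0.83, -0.41 and -1.23 in EC-SP and -1.05, -1.23 and -0.91 in EC-MP, which overlapped (0.24 ± 0.26 SE, limma, adjusted p = 0.608). In the subsets it was close to background. CD157-CD200- replicate 1 was not well above background, and the 3 arrays of that group spread from -5.94 to -2.71. CD157+CD200+ minus CD157-CD200- was 1.63 ± 0.70 SE (limma, adjusted p = 0.172; 0.0483 with the replicate block). It was 0.73 without CD157-CD200- replicate 1 and 2.34 without CD157-CD200- replicate 3, where it was called (limma, adjusted p = 0.0368).

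Ndn, Dlk1 and Meg3 were called in no comparison. Ndn encodes necdin, which is known for holding neural and blood progenitors out of cycle. It ranged from -0.32 to 0.87 over the 15 arrays, its groups overlapped in all 4 comparisons, and its differences lay between -0.15 and 0.18. Dlk1 encodes a membrane and secreted protein related to the Notch ligands, abundant in fetal liver and low in the adult. Its probe A_66_P117477 read -2.42 to -1.65 in EC-SP, -2.65 to -2.15 in EC-MP and -3.69 to -2.35 in the subsets, and the other probe was at background on all 15 arrays. Meg3, the maternally read long noncoding RNA of the Dlk1 cluster, was at or near background. Of its 3 probes 2 were well above background on any array, and none was so on all 3 arrays of a group, so no change of Meg3 was detectable on these arrays.

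**Figure D3:**
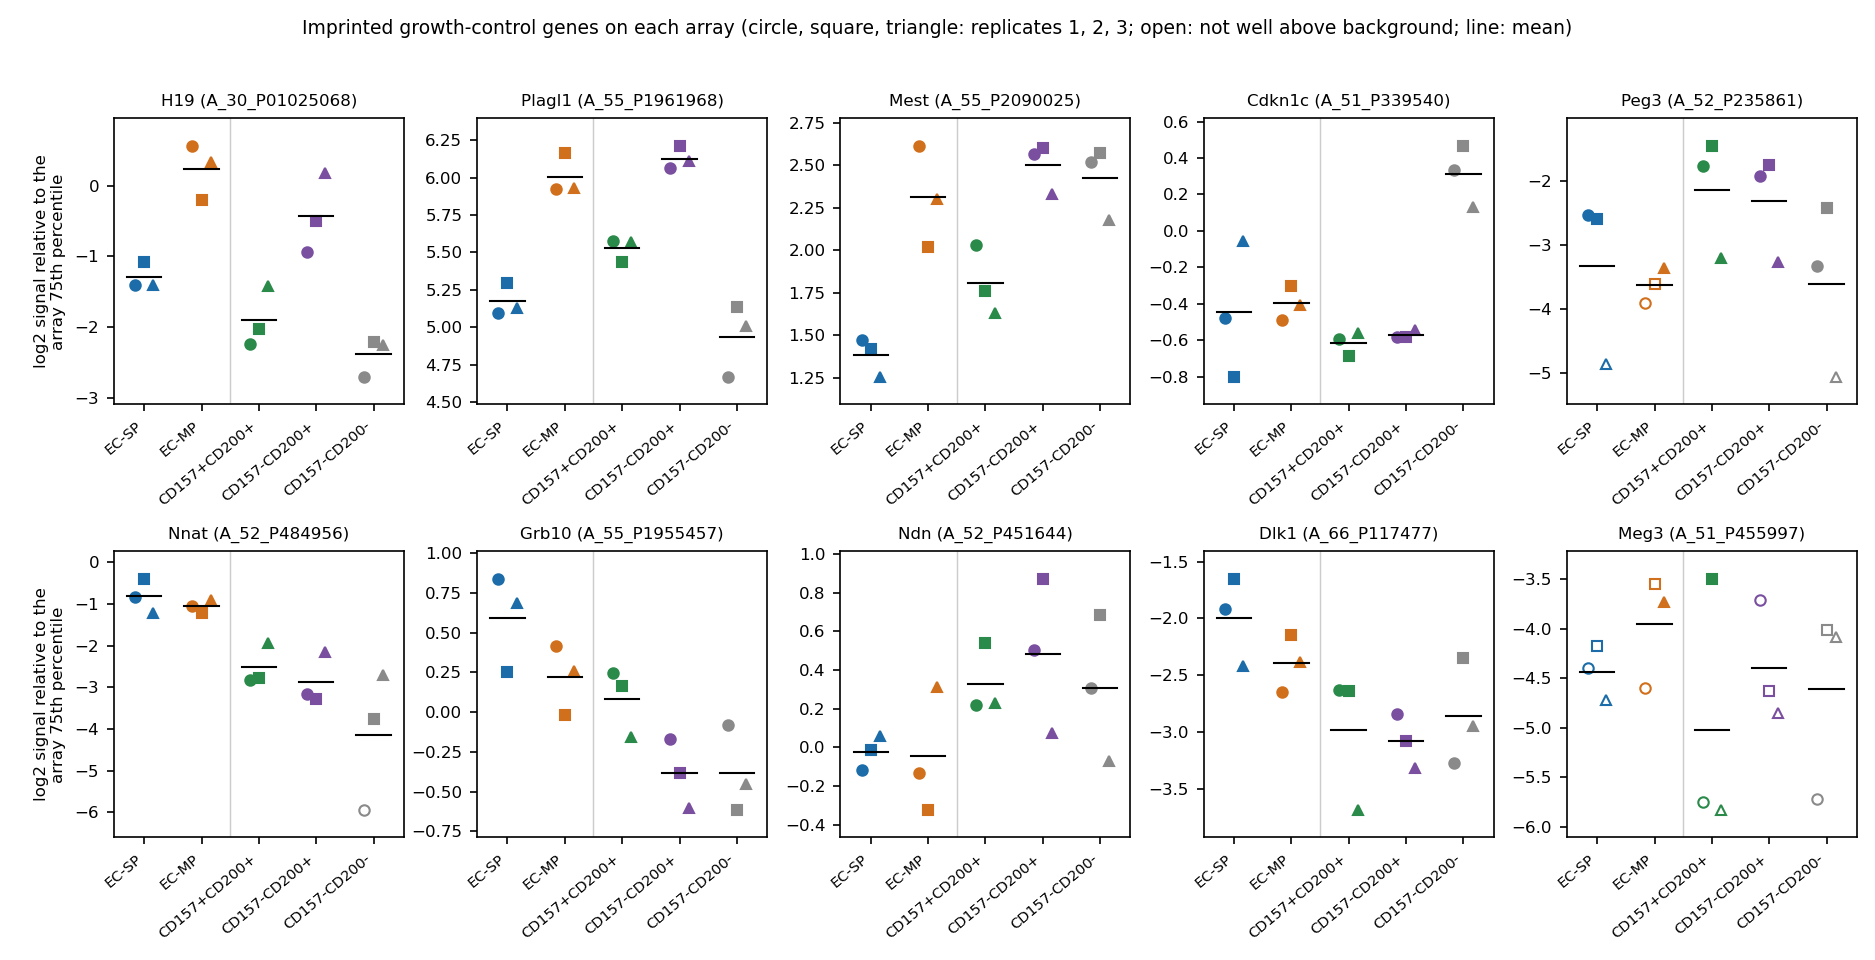
Log2 signal of each of the 10 genes on the 15 arrays, with the probe named above each panel (the probe of the subset fit, and for Meg3 the brightest of its 3); circles, squares and triangles are replicates 1 to 3, open symbols were not well above background, and lines are group means. Within each set of arrays H19 and Plagl1 are highest in EC-MP and in CD157-CD200+, Mest is lowest in EC-SP and in CD157+CD200+, and among the subsets Cdkn1c is highest in CD157-CD200-; y axes differ between panels.

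The neighbours of these genes in the genome were looked up in the RefSeq table of GRCm38.p6. H19 lies beside Mir675 and Igf2, Mest beside Mir335 and Copg2, Cdkn1c beside Kcnq1ot1, Slc22a18 and Phlda2, Dlk1 beside Meg3, Meg3 beside Rtl1, Peg3 beside Usp29 and Zim1, Ndn beside Magel2, Mkrn3 and Peg12, and Nnat beside Blcap. Of these, Phlda2, Rtl1, Usp29, Zim1 and Mkrn3 did not pass the filter on dim probes.

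Igf2, the fetal growth factor read from the other parental copy than H19, was measured by 1 probe. It read 2.03, 2.28 and 0.24 in EC-SP and 0.27, -0.30 and -0.47 in EC-MP, which overlapped. It was higher in EC-SP by 1.68 ± 0.50 SE (limma, adjusted p = 0.0487), where H19 was lower. In the subsets Igf2 and H19 were highest in the same group. Igf2 read 1.18, 1.41 and 1.63 in CD157-CD200+ cells, -2.32, -1.93 and -1.12 in CD157+CD200+ cells, and was not well above background on any CD157-CD200- array. Relative to CD157-CD200- cells, Igf2 was called higher in CD157-CD200+ and in CD157+CD200+ (limma on the measured values, adjusted p = 8.42e-06 and 0.000554). The probe passed the filter through the CD200-positive groups alone. With each dim array set to its lowest signal that counted as well above background, Igf2 was higher by at least 43.1-fold and 4.69-fold. Those bounds were not tested. CD157+CD200+ minus CD157-CD200+ was -3.20 ± 0.42 SE (limma, adjusted p = 0.00779).

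Copg2, the coat protein gene that follows Mest, had values close to those of Mest in each comparison. It was lower in EC-SP than in EC-MP by -0.96 ± 0.23 SE on the log2 scale (limma, adjusted p = 0.0204), beside -0.93 for Mest. The array values were -0.53, -0.20 and -0.74 in EC-SP and 0.43, 0.50 and 0.47 in EC-MP, with no overlap. CD157+CD200+ minus CD157-CD200- gave -0.56 and CD157+CD200+ minus CD157-CD200+ gave -0.69 (limma, adjusted p = 0.0986 and 0.230; 0.0163 and 0.0392 with the replicate block), beside -0.62 and -0.69 for Mest. Overlapping or antisense transcription between the neighbours cannot be told apart from these probes. Neighbours of Cdkn1c did not move with it as 1 block. Kcnq1 of the same cluster was lower in CD157+CD200+ than in CD157-CD200- cells by -1.41 ± 0.16 SE and Slc22a18 was higher by 1.32 ± 0.35 SE (limma, adjusted p = 0.000259 and 0.0294), beside -0.92 for Cdkn1c. Magel2, Peg12 and Blcap were called in none of the 4 comparisons.

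**Figure D4:**
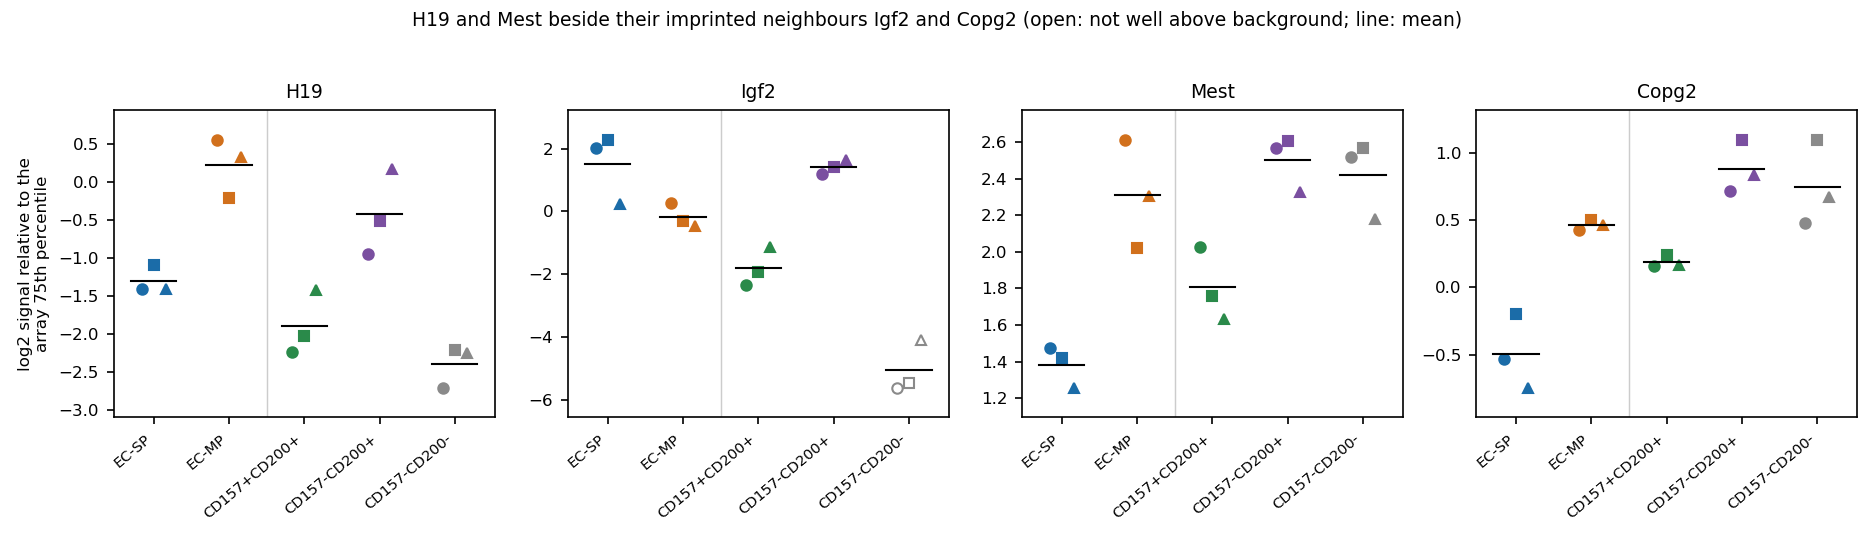
Log2 signal of H19, Igf2, Mest and Copg2 on the 15 arrays by group; circles, squares and triangles are replicates 1 to 3, open symbols were not well above background, and lines are group means. H19 and Igf2 both peak in CD157-CD200+ among the subsets but lie on opposite sides between EC-SP and EC-MP, and Copg2 is lower in EC-SP than in EC-MP as Mest is; y axes differ between panels.

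A list of 44 other imprinted genes was tested alongside, of which 30 passed the filter in the fit of 6 arrays and 31 in that of 9. Between EC-SP and EC-MP 9 of 30 were called, 4 higher and 5 lower, against 16.5% of all features. Ppp1r9a, a neuronal actin-binding protein, fell by 1.93 on the log2 scale, Tfpi2, a protease inhibitor, was higher by 1.71, and Peg10, a gene derived from a retrotransposon, by 1.11. In CD157+CD200+ against CD157-CD200- cells 9 of 31 were called, 5 higher and 4 lower, against 15.2%, led by Snrpn, a splicing protein gene, at 3.85 ± 0.30 SE (limma, adjusted p = 1.85e-05), with 2 of 3 CD157-CD200- arrays well above background. Igf2r, the receptor that clears IGF2, was higher by 1.68 ± 0.20 SE in CD157+CD200+ (limma, adjusted p = 0.000272) and by 1.23 in EC-SP (limma, adjusted p = 0.0493). In CD157-CD200+ against CD157-CD200- cells 8 of 31 were called, 5 higher and 3 lower, against 11.8%, and between CD157+CD200+ and CD157-CD200+ Igf2 alone was, 1 of 31 against 1.05%. The medians of the list were -0.18, -0.090, 0.0069 and -0.023 in the order EC-SP against EC-MP, CD157+CD200+ against CD157-CD200-, CD157-CD200+ against CD157-CD200-, and CD157+CD200+ against CD157-CD200+. Osbpl5, which lies in the cluster of Cdkn1c, changed sides between the sorts as Plagl1 did, lower in EC-SP by -1.07 ± 0.26 SE and higher in CD157+CD200+ than in CD157-CD200- by 1.11 ± 0.21 SE, and the test of the 2 sorts gave -2.18 ± 0.33 SE (limma, adjusted p = 0.00130).

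The genes that these members act with were also counted. The shares of all features called, to be read beside each count, were 16.5% for EC-SP against EC-MP, 15.2% for CD157+CD200+ against CD157-CD200-, 1.05% for CD157+CD200+ against CD157-CD200+ and 11.8% for CD157-CD200+ against CD157-CD200-. In the insulin-like growth factor axis 5 of 12 tested were called between EC-SP and EC-MP, 4 higher and 1 lower, and 7 of 12 between CD157+CD200+ and CD157-CD200-, 6 higher and 1 lower. Insr, the insulin receptor that Grb10 binds, was higher in EC-SP by 2.08 ± 0.20 SE and in CD157+CD200+ by 2.38 ± 0.18 SE against CD157-CD200- and 1.18 ± 0.18 SE against CD157-CD200+ (limma, adjusted p = 0.000279, 1.77e-05 and 0.0149). In the list of insulin receptor and mTORC1 signalling 5 of 14, 3 of 15, 2 of 15 and 2 of 15 were called in the order EC-SP against EC-MP, CD157+CD200+ against CD157-CD200-, CD157+CD200+ against CD157-CD200+, and CD157-CD200+ against CD157-CD200-. Grb14, a relative of Grb10, was called higher in EC-SP (limma on the measured values, adjusted p = 0.000237), where Grb10 was not called. Grb14 was not well above background on any EC-MP array. With those arrays set as for Igf2, it was at least 8.43-fold higher, a bound that was not tested.

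Cdkn1c is 1 of several kinase inhibitors. In its list of kinase inhibitors and growth arrest genes 6 of 18, 6 of 19, 1 of 19 and 5 of 19 were called in the same order, against 16.5%, 15.2%, 1.05% and 11.8% of all features. Cdkn1a, which encodes p21, was higher in EC-SP by 2.01 ± 0.44 SE (limma, adjusted p = 0.0148). Cdkn2d, which encodes p19, was higher by 1.28 in CD157+CD200+ and by 1.04 in CD157-CD200+ than in CD157-CD200- cells (limma, adjusted p = 0.00454 and 0.0174), where Cdkn1c was lower. Of 19 proliferation genes tested, 8 were called lower in CD157-CD200+ than in CD157-CD200-, with Ccnd1, cyclin D1, at -2.75 ± 0.16 SE (limma, adjusted p = 3.28e-06). Between EC-SP and EC-MP 3 proliferation genes were called higher and 1 lower, Mki67 among the higher at 1.42 ± 0.31 SE (limma, adjusted p = 0.0137).

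Of genes that set or keep imprints, 2 of 14 tested were called between EC-SP and EC-MP, near the 16.5% of all features, and 1 of 14 in CD157+CD200+ and in CD157-CD200+ against CD157-CD200-, below the 15.2% and 11.8%. Dnmt3a, a DNA methyltransferase, was lower by -1.21 ± 0.30 SE and Trim28, the corepressor that works with ZFP57 at imprinted loci, was higher by 0.71 ± 0.21 SE in EC-SP (limma, adjusted p = 0.0265 and 0.0489). Tet1, a methylcytosine oxidase, was the gene called in both subset comparisons, higher by 1.63 ± 0.19 SE and 1.42 ± 0.19 SE (limma, adjusted p = 0.000318 and 0.000947). Of 13 Notch and adipogenic partners of Dlk1, 8 were called, all higher in EC-SP than in EC-MP, against 16.5% of all features, with Jag2 at least 23.5-fold higher. In CD157+CD200+ against CD157-CD200- 4 were higher and 1 lower, against 15.2%, and in CD157-CD200+ against CD157-CD200- 4 were higher and 4 lower, against 11.8%. Dlk1 itself was not called.

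Promoter sequences from RefSeq, 250 bases before each start in GRCm38.p6, were searched on both strands for the motif GGGGCCCC, which PLAGL1 binds, and for TGCCGC, which ZFP57 binds when methylated. Windows were given for 8 of the 10 genes, 12 windows in all, with none for H19 or Cdkn1c. The PLAGL1 motif was found in 1 gene, Peg3, and stands in 0.889% of the 32851 windows of that length. The ZFP57 motif was found in Meg3, Plagl1 and Mest and stands in 8.68% of windows. Of 4 windows of called genes with a motif, 3 are printed with the motif in capitals, since a second Mest window at chr6:30737803-30738052 overlaps the first and also holds 2 ZFP57 motifs, where GCGGCA is TGCCGC read on the other strand. They lie at chr7:6730420-6730669 on the minus strand for Peg3, chr10:13090582-13090831 on the plus strand for Plagl1 and chr6:30737800-30738049 on the plus strand for Mest, and hold 8, 19 and 14 CpG pairs, where the median window holds 6.
Peg3: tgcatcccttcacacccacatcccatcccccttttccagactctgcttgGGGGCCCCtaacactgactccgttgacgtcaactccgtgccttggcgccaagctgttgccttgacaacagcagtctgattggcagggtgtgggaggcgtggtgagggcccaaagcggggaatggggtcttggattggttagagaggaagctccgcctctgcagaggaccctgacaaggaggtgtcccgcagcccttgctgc
Plagl1: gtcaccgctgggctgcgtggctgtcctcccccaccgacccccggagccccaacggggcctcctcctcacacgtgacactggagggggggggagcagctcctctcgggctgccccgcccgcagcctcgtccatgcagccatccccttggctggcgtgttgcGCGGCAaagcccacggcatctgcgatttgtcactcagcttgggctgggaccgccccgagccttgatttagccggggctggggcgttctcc
Mest: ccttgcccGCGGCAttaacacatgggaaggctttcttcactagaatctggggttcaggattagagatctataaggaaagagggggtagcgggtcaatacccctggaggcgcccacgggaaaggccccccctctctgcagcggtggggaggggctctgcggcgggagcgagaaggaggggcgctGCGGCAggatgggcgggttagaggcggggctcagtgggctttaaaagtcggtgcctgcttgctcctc
A match is a stretch of letters and says nothing of whether the factor binds there in these cells.

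For each gene called at least once, the genes with the most similar values were listed by the mean absolute log2 difference over the 15 arrays, after the mean of each set of arrays was removed, among 13644 genes tested in both sets. For H19 they were Icam5, Egfem1 and Csrp2, at 0.356, 0.363 and 0.368, where the median gene was at 0.822. For Plagl1 they were Tmem255a, Ccdc144b and Mcfd2, at 0.156, 0.168 and 0.172, against a median of 0.508. Cdkn1c was closest to Hmga2, Zeb1 and Frmd8, at 0.0939, 0.103 and 0.116, Mest to Nans, Med29 and 1500015A07Rik, at 0.163, 0.166 and 0.168, and Peg3 to Cox6b2, Emp2 and 4930525G20Rik, at 0.381, 0.424 and 0.461. None of the 10 genes was among the 3 closest of another.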

How the data were processed

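RNA of 15 sorted liver endothelial samples was amplified and hybridised with Cy3 to one-colour Agilent arrays, per the labels' protocols. The deposited scanner files hold the intensity of each spot on a linear scale, background-subtracted by Agilent Feature Extraction, in version 10.10.1.1 (EC-SP, EC-MP) or 11.5.1.1 (subsets), per the file headers. Each column of the deposited series table was that intensity times a constant, 5.46 to 10.1.

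Control spots were left out, and 110 to 213 of 59305 spots per array with outlier flags were set to missing. No spot was saturated. Values are log2 intensity minus the log2 75th percentile of the array, with spots of 1 probe averaged. Probes were named through RefSeq accessions (28059) or by an exact symbol (15, the 5 H19 probes among them), and 27607 had no symbol. Tested probes were well above background on each of the 3 arrays of a group in the fit, and the brightest tested probe over the 15 arrays stood for a gene. This left 23971 features in the fit of 6 arrays and 23701 in that of 9. Limma 3.58.1 in R 4.3.3 (lmFit, eBayes, two-sided) was fitted to each, and to all 15 arrays for the test of the 2 sorts, with Benjamini-Hochberg adjustment over all features. SE comes from the fit, and the number of arrays, 3 in each group, limits the precision. Files were read with numpy 2.4.6 and pandas 2.3.3 under Python 3.11.15. The procedure was tested on simulated data with 100 features changed by 1 and 100 by 2 on the log2 scale. For EC-SP minus EC-MP 3% and 63% of these were called, and for CD157+CD200+ minus CD157-CD200- 24% and 71%. Far fewer features were changed there than were called in the arrays, so these shares do not carry over to the arrays. A gene not called is not thereby shown to be unchanged. Alternatives were normexp, quantile normalization, the series table, other filters on dim probes, each probe alone, the mean of a gene's probes, the replicate block, 1 fit of all arrays, and each array left out.

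Same-numbered arrays shared slide and scan. Their deviations from the group means correlated at r of 0.273 to 0.331 (3 pairs) and 0.270 to 0.628 (9 pairs), so the numbers pair the arrays, and the block for replicate number is also the block for slide and scan. The normexp alternative (offset 50) used the median foreground signal, since the files used here have no mean signal column.

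All 10 genes are named in every comparison, and from each other list up to 4 called genes with the lowest adjusted p, or the gene with the lowest p, beside the genomic neighbours of the 10. Slc22a18, Copg2, Igf2r for EC-SP and Osbpl5 were described after their values were seen. The 10 genes and the lists were chosen with earlier results of these data known. Sequences are from RefSeq tables of GRCm38.p6, and no genome was used.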

Additional observations from a re-analysis of the deposited data

Results flagged for a closer look

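The effects of the 2 sorts differed for 2 of the 9 tested genes when the difference itself was tested (limma, EC-SP minus EC-MP against CD157+CD200+ minus CD157-CD200-, all 15 arrays). Of all features, 5.04% were called in that test and 2.96% on the negative side, where both genes were. The value was -2.02 for H19 (limma, adjusted p = 0.0143) and -1.42 for Plagl1 (limma, adjusted p = 0.00324). H19 and Plagl1 were lower in EC-SP on 3 of 3 slides. Both read higher in CD157+CD200+ than in CD157-CD200- on 3 of 3 slides, but that H19 difference, 0.49, was not called (limma, adjusted p = 0.397), and H19 probe A_30_P01028827 gave -0.27, with -0.50, -0.52 and 0.20 on the slides. The vessel marker lists, which differed between groups within each set of arrays, are given in the report, and their part in these values was not tested.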

How the results depend on the processing

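No gene reversed its direction where it was called. Over 24 alternative settings, values of single genes kept their call or its absence 923 times, lost a call 34 times and gained one 22 times. Of the calls between pairs of groups, only H19 between EC-SP and EC-MP, and H19, Plagl1 and Cdkn1c between CD157-CD200+ and CD157-CD200-, with Cdkn1c also between CD157+CD200+ and CD157-CD200-, were called without any 1 array. Low signals of Peg3, Nnat, Dlk1 and Meg3 limit what could be detected.

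With no filter on dim probes, 2284 of 36786 features and 1 of the 10 genes were called between EC-SP and EC-MP. Between CD157+CD200+ and CD157-CD200-, 1 gene was called under each of quantile normalization, the authors' series table, no filter and each probe as a feature. Those settings called 3635 of 23701, 3603 of 23701, 2783 of 36786 and 4946 of 33835 features. With the replicate block, 6923 features and 6 genes were called there, 725 features and 2 genes between CD157+CD200+ and CD157-CD200+, 5280 features between CD157-CD200+ and CD157-CD200-, 6350 features and 6 genes by the F test, and 3190 features in the test of the 2 sorts. Between CD157+CD200+ and CD157-CD200+, normexp gave 376 of 23701 features and 2 genes. Probes well above background on every array gave 159 of 20445 features there, and 1 fit of all 15 arrays gave 242 of 25062 features and 1 gene. Leaving out 1 array at a time gave 1 to 2 genes and 2668 to 3299 features between EC-SP and EC-MP. It gave 1 to 3 genes and 2634 to 3378 features between CD157+CD200+ and CD157-CD200-. Between CD157+CD200+ and CD157-CD200+ it gave 101 to 257 features (without CD157+CD200+ replicate 1 or 2 or CD157-CD200+ replicate 1 or 2 fewer than the 248 by over 1.5 times). Besides the calls given with the block in the report, the block changed no other call of the 10 genes, and the fit with slide and scan as a block is the same fit. With probes well above background on every array, Peg3 had no value in any fit and Nnat none in the subset fits or the test of the 2 sorts. The cause of these shifts was not tested, beyond more or fewer features tested where the filter changed.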
